A study of Mus musculus with 2 samples.

Results

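Genes that encode receptors for antibody constant regions, or the chain through which those receptors signal, were followed in 2 RNA-seq libraries of mouse blood cell progenitors. There are 7 of them, Fcer1g, Fcgr3, Fcgr4, Fcgr1, Fcer1a, Fcgr2b and Fcgrt. They were taken by symbol, with no threshold on their values, and each of the 7 was found as a row among the 43346 Ensembl genes of the deposited tables. Both libraries carry the label of the megakaryocyte progenitor, CFU-Meg, the colony-forming cell that gives rise to platelet-releasing megakaryocytes. The cells came from adult male C57BL/6J mice aged 5 to 6 weeks, with no genotype change or treatment named. Each library was made from total RNA, starting with 1 ng. The libraries, called replicate 1 and replicate 2, form 1 group, which leaves comparisons of genes within a library and of a gene across the pair. The labels give each replicate its own biosample and both the same donor identifier, so that their spread may be technical.

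Fc receptors let leukocytes sense antibody that has bound its target. The activating receptors of mouse leukocytes bind antibody through an alpha chain that cannot signal alone and pair with the common gamma chain encoded by Fcer1g. The gamma chain carries a tyrosine-based activation motif (ITAM) that Src family kinases phosphorylate and the kinase Syk then binds. Fcgr2b is the inhibitory IgG receptor. It carries an inhibitory motif (ITIM) and recruits phosphatases. Fcgrt, the neonatal receptor FcRn, belongs to another family, resembles MHC class I, and carries IgG across and out of endosomes. An antibody against CD16 and CD32, the products of Fcgr3 and Fcgr2b, is widely used to sort granulocyte and monocyte progenitors, which stain strongly, from other marrow progenitors. The sorting gate, and whether this staining was part of it, is not stated in the sources used, so what part a gate had in the Fcgr3 and Fcgr2b levels was not tested.

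The libraries held 82746658 and 75652762 expected counts, and 11905 and 11561 genes reached 1 TPM, the unit of a level per effective length scaled to the library's total. Ensembl genes other than mitochondrial genes, small RNAs and Gm42418 held 41115850 of these counts in replicate 1 and 38000273 in replicate 2. The marker lists did not follow the label. Over all protein-coding genes, 46.2% reached 1 TPM in both libraries. Of 11 megakaryocyte markers 3 reached 1 TPM in both libraries, with summed levels of 21.5 TPM in replicate 1 and 15.4 TPM in replicate 2, Nbeal2 highest at 9.50 ± 1.24 TPM, Itga2b at 2.41 ± 0.32 TPM, Pf4 at 0.60 ± 0.47 TPM (mean ± SD, n = 2) and Tubb1 with no read in either. All 10 granulocyte markers did, with sums of 14651 and 14408 TPM, Mpo highest and Cebpe lowest. Of 10 monocyte and macrophage markers 9 did, with sums of 3083 and 3544 TPM, Ly6c2 highest and C1qa lowest. Of 8 mast cell and basophil markers 5 did, with sums of 129.7 and 150.7 TPM, Cpa3 highest, and no read for the mature mast cell proteases Mcpt4 and Tpsb2. None of 7 B cell markers (sums of 1.08 and 0.89 TPM, Vpreb1 highest, no read for Ms4a1 or Pax5) and none of 6 T and NK cell markers (sums of 0.78 and 0.57 TPM, Ncr1 highest, no read for Cd3e or Eomes) did. The erythroid list had 5 of 6 members at 1 TPM in both, with sums of 535.1 and 271.7 TPM, of which Car1 gave 511.9 and 242.3 TPM. Without Car1 the erythroid sums were 23.1 and 29.4 TPM, and Alas2 was lowest. The dendritic cell list had 1 of 6, with sums of 14.4 and 19.2 TPM, H2-Aa highest and Siglech lowest. The part that each of these cell types has in the levels below was not tested. In these bulk libraries, fewer cells of a type and less RNA per cell cannot be told apart.

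The 7 genes lay at 3 levels. Fcgr3, Fcer1g and Fcgr2b were abundant, at 59 TPM or more on average. Fcer1a and Fcgr4 lay between 2 and 5 TPM, and Fcgrt and Fcgr1 lay under 0.3 TPM. At least 1 TPM in both libraries was reached by 5 of the 7, where 25.6% of all Ensembl genes and 46.2% of the 21474 protein-coding genes did so. At least 100 TPM in both was reached by Fcgr3 and Fcer1g, 2 of the 7, and by 2.58% of protein-coding genes. The median member had 3.31 TPM, against 0.585 TPM for the median protein-coding gene. These shares describe a small set chosen for its function and carry no test.

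**Figure D1:**
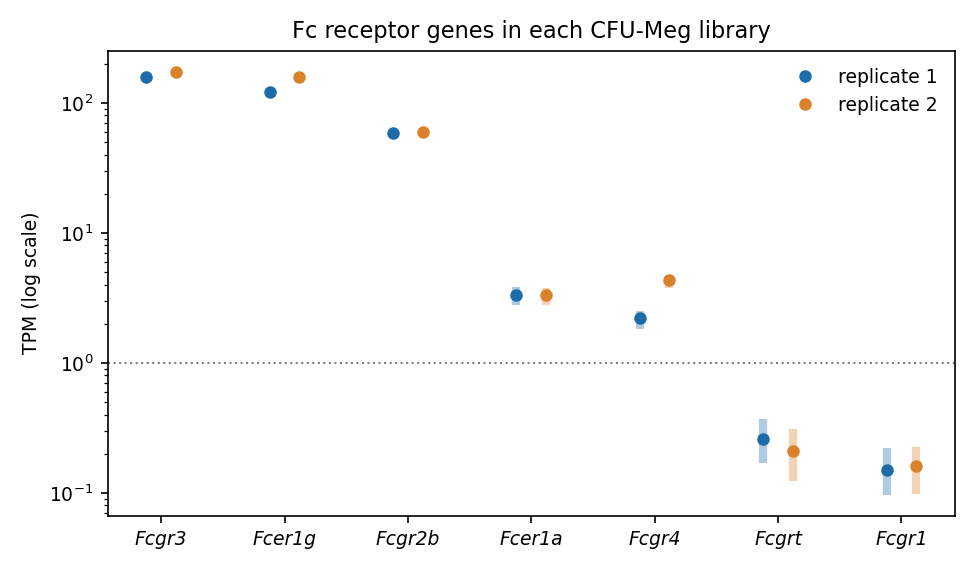
TPM (log axis) of the 7 Fc receptor genes in replicate 1 (blue) and replicate 2 (orange). Points are the deposited TPM, pale bars the deposited credibility interval, and the dotted line marks 1 TPM. Fcgr3, Fcer1g and Fcgr2b lie at 58.3 TPM or above and the other 4 genes at 4.34 TPM or below.

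The signalling chain gene Fcer1g (ENSMUSG00000058715.7, minus strand, chr1:171229572-171234365 on GRCm38, the assembly of mm10) had 120.4 TPM in replicate 1 and 157.3 TPM in replicate 2, from 4006 and 4878 expected counts. Its mean of 138.9 ± 26.1 TPM (SD, n = 2) ranked 417 among protein-coding genes. The deposited credibility intervals of 115 to 122 TPM and 150 to 159 TPM did not overlap, so the libraries differed by more than the quantifier's own error. Nearly all of this signal was assigned to transcript Fcer1g-201, which took 99.4% and 98.5% of the gene's TPM. Its coding sequence of 258 bases is short enough to show whole. It is given because it holds the signalling motif of the set, and the capitals mark the stretch that meets an ITAM rule, a tyrosine codon with a leucine or isoleucine codon at the third codon after it, twin copies of this 6 to 8 codons apart.
Fcer1g-201 coding: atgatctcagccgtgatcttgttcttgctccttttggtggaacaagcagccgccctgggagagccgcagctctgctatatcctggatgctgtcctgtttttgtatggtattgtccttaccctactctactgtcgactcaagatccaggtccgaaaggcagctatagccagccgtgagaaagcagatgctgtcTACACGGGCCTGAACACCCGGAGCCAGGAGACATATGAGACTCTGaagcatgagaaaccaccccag
The marked stretch of 45 bases starts at codon 65 of 86. The coding sequences of the other 6 genes' leading transcripts held no stretch that met the same rule. Fcer1g-203, in which exon 3 is longer at its 3' end, took 0.60% in replicate 1 and 1.28% in replicate 2.

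Among the activating IgG receptors, Fcgr3 was the highest by far. Fcgr3 (ENSMUSG00000059498.9, minus strand, chr1:171051174-171064935), the low-affinity receptor known as CD16 in the mouse, had 158.0 TPM in replicate 1 and 173.0 TPM in replicate 2, from 11824 and 12043 expected counts. Its mean of 165.5 ± 10.6 TPM ranked 346 among protein-coding genes and was the highest of the 7. It stood above Fcer1g by 1.31-fold in replicate 1 and 1.10-fold in replicate 2. The credibility intervals of the 2 genes did not overlap in either library, although the lowest Fcgr3 value and the highest Fcer1g value were less than 1 TPM apart.

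Fcgr4 (ENSMUSG00000059089.4, plus strand, chr1:171018920-171029761), a receptor of monocytes, macrophages and neutrophils for IgG2 antibodies, had 2.20 TPM in replicate 1 and 4.34 TPM in replicate 2, from 153 and 280 expected counts. Its credibility intervals of 1.83 to 2.52 TPM and 3.78 to 4.78 TPM were apart, and it was the most uneven of the 7 between the libraries. Fcgr1 (ENSMUSG00000015947.6, minus strand, chr3:96282909-96293969), the high-affinity IgG receptor CD64 of monocytes and macrophages, had 0.15 TPM in replicate 1 and 0.16 TPM in replicate 2. These values rest on 23 and 22 expected counts, with intervals of 0.097 to 0.219 TPM and 0.098 to 0.227 TPM. Fcgr1 was thus detected in both libraries above the level that 3 reads would give, 0.021 TPM in replicate 2, at a level below that of the median protein-coding gene.

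Fcer1a (ENSMUSG00000005339.6, minus strand, chr1:173221284-173227214), the IgE-binding chain of mast cells and basophils, had 3.31 TPM in replicate 1 and 3.30 TPM in replicate 2, from 167 and 164 expected counts. Its mean of 3.31 ± 0.01 TPM lay beside the 3.27 ± 1.51 TPM of Fcgr4 (SD, n = 2). The order of this pair turned between libraries, since Fcer1a was 1.5-fold higher than Fcgr4 in replicate 1, where the intervals did not overlap, and at 0.76 of Fcgr4 in replicate 2, where they did. The beta chain of the IgE receptor, Ms4a2, was higher than the alpha chain, with 8.95 TPM in replicate 1 and 7.56 TPM in replicate 2.

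Fcgr2b, the inhibitory receptor gene (ENSMUSG00000026656.11, minus strand, chr1:170958617-170976547) was the steadiest of the abundant genes. It had 58.3 TPM in replicate 1 and 59.9 TPM in replicate 2, from 6851 and 6246 expected counts, with overlapping intervals of 55.6 to 59.6 TPM and 57.2 to 61.0 TPM. Fcer1g stood 2.07-fold above it in replicate 1 and 2.63-fold above it in replicate 2. Fcgr3 stood 2.71-fold and 2.89-fold above it, so the activating alpha chain exceeded the inhibitory receptor by a similar factor in both libraries (2.80 ± 0.12, SD, n = 2).

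Fcgrt (ENSMUSG00000003420.7, minus strand, chr7:45092990-45103851), the neonatal receptor, had 0.26 TPM in replicate 1 and 0.21 TPM in replicate 2, from 26 and 19 expected counts. Its intervals of 0.170 to 0.369 TPM and 0.124 to 0.307 TPM overlapped those of Fcgr1, and the order of these lowest members was not resolved. B2m, the light chain that FcRn shares with MHC class I, had 1566 TPM in replicate 1 and 1697 TPM in replicate 2, so the heavy chain and the light chain of FcRn lay at very unequal levels. In the order of the 7 genes, the pairs Fcer1a with Fcgr4 and Fcgrt with Fcgr1 were the neighbours that did not stand apart in both libraries, and the other 4 neighbouring pairs did.

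Fcer1g was less abundant than Fcgr3 and than the sum of the alpha chains it serves, and more abundant than each of Fcgr4, Fcer1a and Fcgr1. Its TPM was 0.74 of the summed TPM of Fcgr1, Fcgr3, Fcgr4 and Fcer1a in replicate 1 and 0.87 of it in replicate 2 (0.80 ± 0.10, SD, n = 2). The sums were 163.7 and 180.8 TPM, and Fcgr3 made up 96.5% and 95.7% of them. The ratio is one of transcript levels per length within a library and says nothing of protein.

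Of the 7 genes, 5 lie on chromosome 1, and 3 of these stand side by side. Fcgr2b, Fcgr4 and Fcgr3 follow each other there with no other protein-coding gene between them, Fcgr4 on the opposite strand, and Fcgr4 ends 21412 bases from the nearer end of Fcgr3. The Fcgr4 level lay far under that of both its flanking receptor genes, 3.27 ± 1.51 TPM beside 59.1 ± 1.2 TPM and 165.5 ± 10.6 TPM. Further out, the Fc receptor-like genes Fcrla and Fcrlb had no read in either library. By counting error alone, a count of 0 allows levels up to those of 3 reads, 0.058 TPM for Fcrla and 0.042 TPM for Fcrlb in replicate 1. The deposited intervals there reached 0.310 TPM for Fcrla and 0.041 TPM for Fcrlb. The annotated genes that overlap members on the deposited list, the antisense Gm38204 at Fcgr2b, the small RNA Gm26110 at Fcgr4 and Mir6546 at Fcgr3, had no read assigned in either library. The antisense Gm45669 at Fcgrt was not analysed here. Without a statement on strand, reads of a gene and of its antisense partner cannot be told apart.

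**Figure D2:**
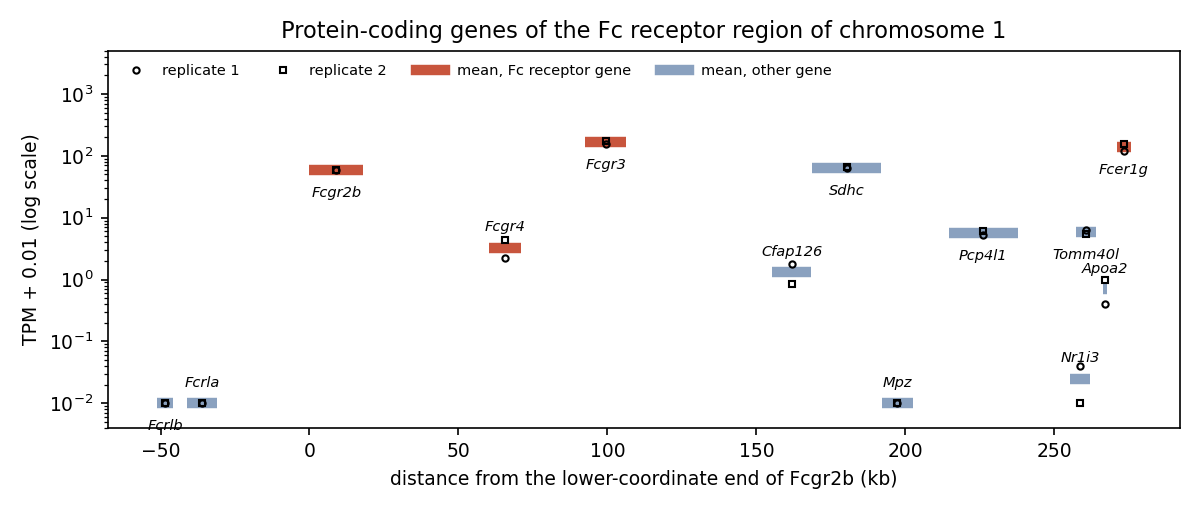
TPM + 0.01 (log axis) of the protein-coding genes of chromosome 1 from those just beyond Fcgr2b as far as Fcer1g, by distance in kb from the lower-coordinate end of Fcgr2b. Bars span each gene at its mean of 2 libraries, red for Fc receptor genes and blue for others, with a circle for replicate 1 and a square for replicate 2. Fcgr4, at 3.27 TPM, sits between Fcgr2b at 59.1 TPM and Fcgr3 at 165.5 TPM.

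The promoters were compared because the low Fcgr4 and the high Fcgr3 are neighbours, and the windows below show a match that they share with Fcgr1. RefSeq promoter windows on GRCm38.p6 were found for all 7 genes, that of Fcgr3 lying within the longer GENCODE gene at the start of Fcgr3-201, and the 250 bases before each start were searched on both strands. GAGGAA, which the myeloid factor PU.1 can bind, was found in 4 of the 7 (Fcgr3, Fcgr1, Fcgr4 and Fcer1a), where 23.1% of 27025 promoters hold it. In the 3 IgG receptor genes it lay within 55 bases of the start and reads TTCCTC, shown in capitals with up to 15 bases on either side.
Fcgr3, chr1:171059404-171059424, minus strand: agagagtccatttccTTCCTC
Fcgr4, chr1:171018889-171018924, plus strand: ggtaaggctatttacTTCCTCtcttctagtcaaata
Fcgr1, chr3:96294004-96294039, minus strand: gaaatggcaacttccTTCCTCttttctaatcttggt
The same letters thus stood near the start of the highest member, of a member at 3.27 TPM and of the lowest member. AGATAA, a form of the GATA motif, was found in Fcer1a alone of the 7 and in 10.3% of all promoters. It lay 92 to 87 bases before the start and reads TTATCT on the gene's strand.
Fcer1a, chr1:173227301-173227336, minus strand: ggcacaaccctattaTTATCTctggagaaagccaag
TTGCNNAA, a form of the C/EBP motif, was found in Fcgr3, Fcer1a and Fcgrt and in 9.55% of all promoters. Fcer1g and Fcgr2b held none of these 3 motifs. A match describes letters in a window, and binding was not measured.

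Fcgr2b was made as several transcripts that differ in the part of the coding sequence before the inhibitory motif. Fcgr2b-202 skips a coding exon of 141 bases that Fcgr2b-201 and Fcgr2b-204 keep whole, and Fcgr2b-203 keeps its first 57 bases. In the mouse these are known as forms b2, b1 and b1', and the b1 insert is known to hinder uptake through coated pits. Macrophages are known for b2 and B cells for b1. The alternative exon is shown with the part that Fcgr2b-203 keeps in capitals, and after it the 122 coding bases that end every form, with the stretch that meets an ITIM rule in capitals.
Fcgr2b alternative exon, chr1:170963325-170963465, minus strand: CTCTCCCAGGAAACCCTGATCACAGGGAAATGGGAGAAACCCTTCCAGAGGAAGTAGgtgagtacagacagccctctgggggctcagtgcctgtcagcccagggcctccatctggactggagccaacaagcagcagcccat
Fcgr2b coding end, chromosome 1, minus strand: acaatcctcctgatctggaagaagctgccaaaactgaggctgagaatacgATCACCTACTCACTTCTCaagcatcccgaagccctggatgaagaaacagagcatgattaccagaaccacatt
The ITIM rule asked for an isoleucine, leucine, valine or serine codon, any codon, a tyrosine codon, any pair of codons, and an isoleucine, leucine or valine codon. It is loose, since Fcer1g, Fcgr1, Fcgr4 and Fcgrt also held at least 1 match in frame. In Fcgr2b-202 it was met once, at codon 270 of 293.

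The form that skips the exon was the higher. Fcgr2b-202 had 26.2 TPM in replicate 1 and 34.2 TPM in replicate 2, which is 45.0% and 57.2% of the gene. Fcgr2b-201 had 18.5 TPM and 15.7 TPM, and the credibility intervals of these 2 transcripts did not overlap in either library. Fcgr2b-203 had 3.68 TPM in replicate 1 and 4.37 TPM in replicate 2. Among the coding transcripts alone, the form without the exon made up 54.2% in replicate 1 and 62.6% in replicate 2, those with the whole exon 38.2% and 29.4%, and the partial form 7.60% and 7.99%. The order of the 3 forms was thus the same in both libraries. Transcripts without an annotated coding sequence took 16.9% in replicate 1 and 8.64% in replicate 2, mostly Fcgr2b-206, which spans the last 2 coding exons, with 7.43 TPM and 2.70 TPM. Fcgr2b-201 is 3544 bases long and Fcgr2b-202 is 1462, mostly from a longer 3' end, so reads of that end as well as of the exon weigh in these shares, and how much was not tested.

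**Figure D3:**
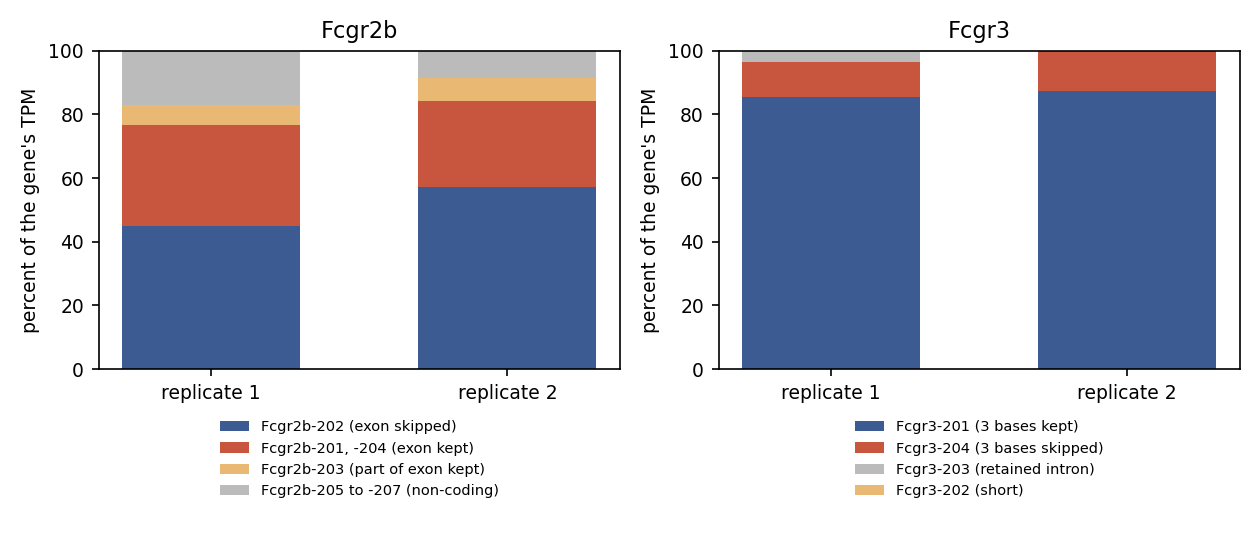
Percent of each gene's TPM assigned to its transcripts in replicate 1 and replicate 2, for Fcgr2b (left, grouped by use of the 141-base exon) and Fcgr3 (right). The exon-skipping Fcgr2b-202 is the largest part of Fcgr2b in both libraries, at 45.0% and 57.2%, and Fcgr3-201 takes 85.5% and 87.4% of Fcgr3.

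For Fcgr3, a pair of coding transcripts accounted for nearly the whole signal, and their coding sequences differed by 3 bases at the start of exon 3. The lines below show exon 2 and the start of exon 3 of both, with the bases that Fcgr3-204 lacks in capitals.
Fcgr3-201: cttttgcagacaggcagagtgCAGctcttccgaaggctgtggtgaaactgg
Fcgr3-204: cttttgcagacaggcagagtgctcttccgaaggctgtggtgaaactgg
Fcgr3-201 had 135.1 TPM in replicate 1 and 151.2 TPM in replicate 2, which is 85.5% and 87.4% of the gene. Fcgr3-204 had 17.5 TPM and 21.6 TPM, which is 11.1% and 12.5%. The share of the shorter form was 11.8% ± 1.0 (SD, n = 2). In full, Fcgr3-201 is 1347 bases long and Fcgr3-204 is 1324, so they also differ outside the coding sequence. How much reads of those other bases weigh in these shares was not tested. Fcgr3-203, with a retained intron, had 5.39 TPM in replicate 1 and none in replicate 2, where its interval still reached 2.21 TPM. For Fcer1a, Fcer1a-201 took 72.2% in replicate 1 and 100% in replicate 2, with Fcer1a-202 taking the rest. The reads behind this difference are few, 39.3 expected counts of Fcer1a-202 in replicate 1 and none in replicate 2.

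Fcgr2b and Fcgr3 are the members whose reads could be confused. Their exons 3 and 4, which encode the antibody-binding domains, are 94.5% and 98.0% identical over 255 bases each, and the longest run of bases shared by their transcripts is 129. Every other pair of members shares a run of 14 bases or fewer. The deposited posterior SD of the count was 7.07 for both genes in replicate 1 and 7.28 for both in replicate 2, and 0 for the other 5 genes. The ambiguity so given is small beside counts of 6246 or more. It covers the quantifier's model alone.

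Between the libraries, no difference beyond counting error was detected for 4 of the 7 genes. Each gene's reads in the pair were set against the ratio of TMM-scaled library sizes by a two-sided exact binomial test, and the p-values of 14304 genes were adjusted by the Benjamini-Hochberg method. It compares these 2 libraries and not conditions, and a gene was called at an adjusted p under 0.05 and a change of 2-fold or more. Fcgr4 was the 1 member called, with a log2 ratio of -1.01 (replicate 1 over replicate 2, adjusted p = 5.23e-12, exact binomial test), where 7.66% of all genes tested were called, 5.04% higher in replicate 1 and 2.62% higher in replicate 2. This call sits at the threshold, since the log2 ratio of TPM was -0.98 and that of counts scaled to the library totals was -0.99. Of 5716 genes between 1 and 10 TPM, 5.91% differed as far or further.

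Fcer1g was lower in replicate 1 by a smaller factor, with a log2 ratio of -0.43 (adjusted p = 1.57e-43, exact binomial test). Of 662 genes at 100 TPM or more, 3.17% differed as far or further. Fcgr3 had a log2 ratio of -0.18 (adjusted p = 8.26e-20, exact binomial test), and 27.0% of those 662 genes differed as far or further. By the adjusted p alone 3 members differed, where 59.0% of all genes did. Reads copied by PCR count as independent in this test, and what part they or other differences between the libraries have in that share was not tested. Fcgr2b, Fcer1a, Fcgr1 and Fcgrt had log2 ratios of -0.02, -0.12, -0.08 and 0.28, with adjusted p of 0.61, 0.53, 0.91 and 0.63 (exact binomial test). A p that misses the threshold does not show that the levels are equal. Among the marker lists, all 9 monocyte and macrophage markers that could be tested were lower in replicate 1, with a median log2 ratio of -0.45 and a range of -0.61 to -0.22, where 50.0% of all genes tested were lower. Without Ly6c2, the highest, their sums were 316.3 TPM in replicate 1 and 423.3 TPM in replicate 2. Of 10 granulocyte markers 7 were lower, with a median log2 ratio of -0.17. Camp and S100a8, genes of maturing neutrophils, were furthest down at -0.96 and -0.92, and Elane furthest up at 0.36. None of these markers was called. Their part in the lower Fcgr4 and Fcer1g of replicate 1 was not tested.

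**Figure D4:**
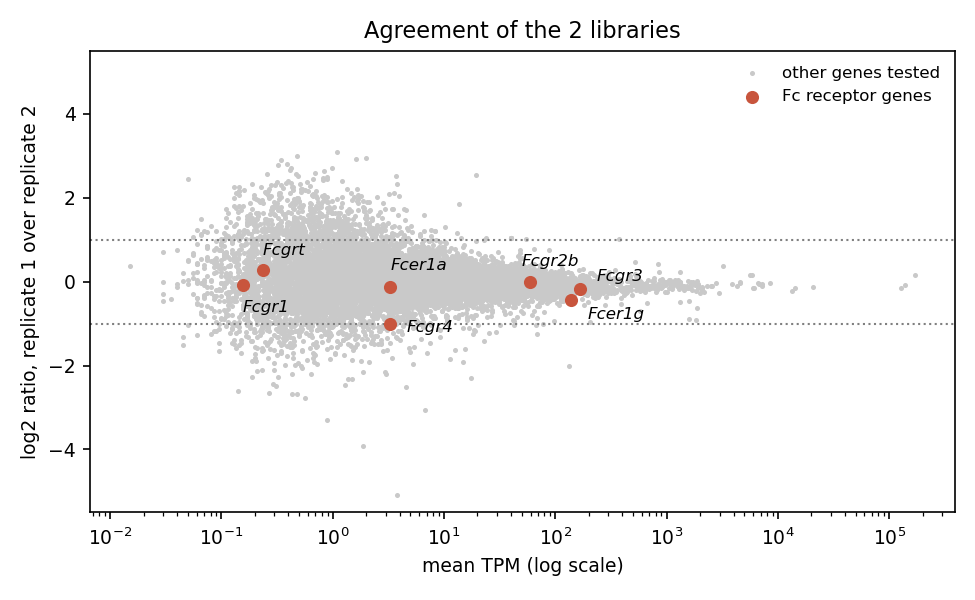
Log2 ratio of scaled counts, replicate 1 over replicate 2, against mean TPM (log axis) for the genes tested, with the Fc receptor genes in red. Dotted lines mark a 2-fold difference. Fcgr4, at -1.01, lies on the lower line, and the other 6 lie between -0.43 and 0.28.

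Fc receptors outside the set lay mostly under 1 TPM, 9 of 11 in both libraries. Of 11 such genes, Ms4a2 and Trim21, a cytosolic antibody receptor, reached 1 TPM in both libraries, where 46.2% of protein-coding genes did. The means of Ms4a2 and Trim21 were 8.26 ± 0.98 and 3.26 ± 0.59 TPM (n = 2). Fcrl1, a receptor-like gene of B cells, had 0.20 TPM in replicate 1 and 0.49 TPM in replicate 2 and was called (log2 ratio -1.23). Fcer2a, the low-affinity IgE receptor of B cells, had 0.03 and 0.13 TPM, Fcmr, a receptor for IgM, 0 and 0.06 TPM, and Fcrl5 0.02 and 0 TPM. Fcamr, Pigr, Fcrls, Fcrla and Fcrlb had no read in either library. At 3 reads these 5 would reach no more than 0.063 TPM in replicate 2, while the deposited intervals there reached up to 0.332 TPM, the bound of Fcrla.

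The other adaptor with an ITAM that was abundant was Tyrobp. Tyrobp, which encodes DAP12, the partner of many myeloid and NK cell receptors, had 169.8 TPM in replicate 1 and 200.5 TPM in replicate 2, beside 120.4 and 157.3 TPM for Fcer1g. Hcst, which encodes DAP10, an adaptor without an ITAM, had 10.3 ± 0.5 TPM (n = 2). Cd79b, a signalling chain of the B cell receptor, had 20.5 ± 1.5 TPM, while its partner Cd79a had 0.20 ± 0.07 TPM (n = 2). The T cell receptor chain genes Cd3e and Cd3g had no read, and Cd247 had 0 and 0.05 TPM. Of these 7 adaptors 3 reached 1 TPM in both libraries, a share near the 46.2% of protein-coding genes that did.

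Among 6 further receptors that pair with the gamma chain, 2 reached 1 TPM in both libraries, where 46.2% of protein-coding genes did. Clec4e and Clec4d, C-type lectins of myeloid cells that sense microbial glycolipids, had 7.65 ± 0.37 and 2.99 ± 0.21 TPM (n = 2). Gp6, the collagen receptor that signals through the gamma chain in megakaryocytes and platelets, had no read in either library. At 3 reads Gp6 would have had 0.048 TPM in the first and 0.051 TPM in the second. Pira2 had 0.73 TPM in replicate 1 and 1.41 TPM in replicate 2 and was called (log2 ratio -1.02), and is uncertain because the paired Ig-like receptors are near-identical copies. Clec4n had 0.27 and 0 TPM and Oscar 0.09 and 0 TPM.

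The machinery downstream of the ITAM was expressed broadly. Of 20 activating kinases and adaptors, 18 passed 1 TPM in each library, where 46.2% of protein-coding genes did, and their median level was 13.7 TPM. The highest were the exchange factor Vav1 at 34.3 ± 2.0 TPM, the adaptor Grb2 at 33.8 ± 2.0 TPM, the kinase Prkcd at 31.5 ± 2.7 TPM and the adaptor Lcp2 at 30.2 ± 1.8 TPM (n = 2). The lowest were Src, with 0.11 and 0 TPM, and the adaptor Lat, with 0.09 and 0.57 TPM. None of the 18 that could be tested was called between the libraries, where 7.66% of all genes tested were.

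Inhibitory genes were expressed alongside. Of 13 phosphatases, ligases, receptors and adaptors that restrain these signals, 11 passed 1 TPM in each library, where 46.2% of protein-coding genes did. The median level of the 13 was 5.22 TPM. Ptpn6, which encodes the phosphatase SHP-1, led with 49.0 ± 1.1 TPM, followed by the adaptor Sla at 34.6 ± 5.0 TPM, the ubiquitin ligase Cbl at 31.9 ± 0.9 TPM and Inpp5d, which encodes SHIP1, the lipid phosphatase that Fcgr2b is known to recruit, at 25.6 ± 2.4 TPM (n = 2). The lowest were Inppl1, which encodes the related SHIP2, at 0.49 ± 0.08 TPM and Dok2 at 0.86 ± 0.02 TPM.

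**Figure D5:**
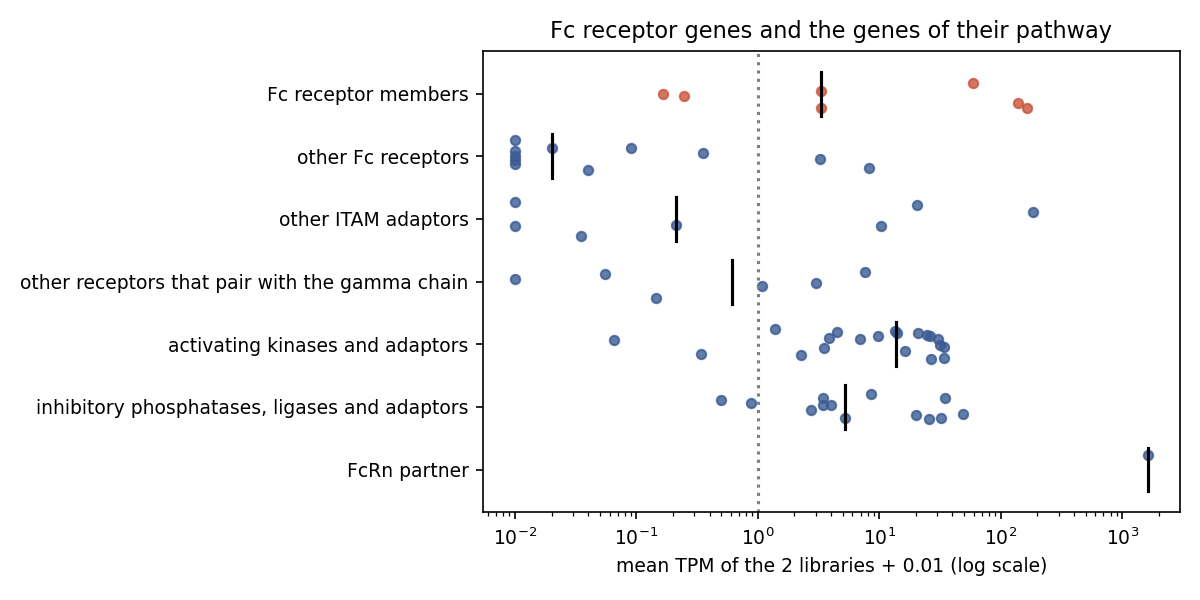
Mean TPM of 2 libraries + 0.01 (log axis) of the 7 Fc receptor genes (red) and the genes of 6 related lists (blue), each point a gene, spread vertically for legibility. Black lines are list medians and the dotted line marks 1 TPM. The kinase and adaptor list has its median at 13.7 TPM and the inhibitory list at 5.22 TPM, while other Fc receptors lie mostly at or near 0.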

How the data were processed

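Total RNA-seq of 2 libraries was used, labelled as biological replicates but sharing a donor identifier. Per the notes deposited with each sample, reads were aligned to mm10 and quantified against GENCODE M4, each library alone. The column names are those RSEM writes. No source used here gives versions, the aligner or strand use. Expected counts were deposited as each gene's estimated reads, ambiguous ones being divided, per the file headers. The authors' TPM and FPKM values are per effective length, with TPM scaled over every row. The deposited percent values give each transcript's part of its gene's TPM. The deposited score columns hold credibility bounds, of unstated level, and the posterior SD of the count.

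Genes were named through GENCODE M21 on GRCm38 (98.0% of Ensembl rows matched), and coordinates are from it. Of the members' 19 deposited transcripts, 18 had the same length in both releases, Fcgrt-201 being the exception. Counts were rounded and scaled by TMM in edgeR 4.0.16 (R 4.3.3) after filterByExpr, with a prior count of 2 for log2 ratios. The binomial test (SciPy 1.17.1) was tested on simulated data with counting error alone. That is the error the test assumes, so the simulation does not show how it behaves under wider spread. DESeq2 1.42.0 size factors were an alternative. Depth limits were computed as the TPM of 3 reads, and cover counting error only. Promoters are from RefSeq.

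The members and lists were chosen with earlier results of these data known. Named genes were all members, all genes of the receptor and adaptor lists, the 4 highest and 2 lowest of each signalling list, and the highest and lowest markers with Itga2b and Pf4. Markers with no read, Camp, S100a8 and Elane, and the genes Fcrla and Fcrlb as neighbours were named after their values were seen. No gene of like pattern was sought, since 2 libraries of 1 group give none. Some genes are not reported here.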

Additional observations from a re-analysis of the deposited data

How the results depend on the processing

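Of the counts of genes that reached 1 TPM in both libraries, those that moved by over 1.5 times did so with a threshold of 5 TPM. With it 3 members passed in place of 5 (Fcgr3, Fcer1g and Fcgr2b), 1 other Fc receptor in place of 2, 1 other gamma chain partner in place of 2, and 6 inhibitory genes in place of 11. A threshold of 0.5 TPM, the posterior mean TPM, rescaled TPM and leaving out each replicate kept every such count within 1.5 times. The count of members that differed between the libraries, 1, became 0 with counts scaled to the library totals, where Fcgr4 had a log2 ratio of -0.99, and 3 by the adjusted p alone. It kept the value 1 with DESeq2 size factors, with no filter and at a log2 ratio of 0.5. The Fcer1g ratio of 0.80 is the mean of 0.74 in replicate 1 and 0.87 in replicate 2. Leaving out either replicate returns the value of the other, so it is no check on this ratio. Rescaling TPM without mitochondrial, small RNA and Gm42418 rows raised all 7 levels by the same factor within a library and left their order. The mean of Fcgr3 rose from 165.5 to 362.3 TPM and that of Fcgr1 from 0.155 to 0.34 TPM. No paired analysis was possible because the labels give 1 group. With 2 libraries, levels under 1 TPM rest on few reads, 19 to 26 for Fcgr1 and Fcgrt.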
